A study of Mus musculus with 3 samples.

Results

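A group of 9 transcription factors that act in the corneal epithelium were followed through whole mouse corneas: Pax6, Trp63, Klf4, Klf5, Klf6, Elf3, Ehf, Foxc1 and Id1. They were chosen by symbol and matched by Ensembl ID. All 9 are among the 30406 genes listed for every library. Nuclei were profiled in 3 droplet libraries, each pooled from the frozen corneas of 5 mice at 7 weeks of age, per the labels. WT came from untreated wild-type mice, KO from untreated Aire knockout mice, and KO_PBS from Aire knockout mice given PBS for 14 days. Both KO groups carry the knockout of Aire, a regulator of self-antigen display in the thymus, and such mice develop autoimmune dry eye. The labels do not give the strain or the form of the deletion. The series text also names an age of 6 weeks, treatment day 7 and a lacripep arm, which was not analysed here. With 1 pooled library per group there is no replicate spread, so no p-value is given, and every interval below covers counting error only.

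The corneal surface is a stratified epithelium that is renewed from basal cells at the limbus, its outer rim. Pax6, a paired-domain and homeodomain protein, sets eye identity in the embryo and keeps the adult epithelium corneal rather than skin-like. Trp63 encodes p63, the p53 relative that marks basal and progenitor cells of stratified epithelia. Klf4 and Klf5 are zinc-finger factors that act in differentiation and in basal growth, and Elf3 and Ehf are Ets factors found mostly in epithelia. Klf6 is a widely expressed relative of Klf4. Foxc1 is a forkhead factor of the periocular mesenchyme that builds the front of the eye. Id1 lacks a DNA-binding region and blocks E proteins, and it is a classic target of Bmp signals.

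The upstream sequences of Klf4, Klf6 and Pax6 are shown because Klf factors bind CACCC and GC-rich boxes, and because Klf4 and Klf6 were both above the median gene in KO, as given below. RefSeq entries for GRCm38.p6 matched 5 of the 9 factors (Pax6 with 2 starts, Klf4, Klf6, Elf3 and Foxc1). Each line holds the 250 bases before the start, 5′ to 3′ on the gene's strand, with GGGCGG or CCGCCC in capitals. CACCC and its reverse GGGTG were searched on both strands too and were in none of these 3 windows, while the Elf3 window, not printed, held 2 matches and the Foxc1 window 1.
Klf4, chr4:55532476-55532725, minus strand: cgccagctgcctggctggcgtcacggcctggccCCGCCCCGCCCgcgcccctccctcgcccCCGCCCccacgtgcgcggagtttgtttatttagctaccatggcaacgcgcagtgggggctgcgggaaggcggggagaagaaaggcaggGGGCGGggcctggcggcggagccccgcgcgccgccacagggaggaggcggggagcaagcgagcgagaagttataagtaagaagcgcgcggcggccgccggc
Klf6, chr13:5861239-5861488, plus strand: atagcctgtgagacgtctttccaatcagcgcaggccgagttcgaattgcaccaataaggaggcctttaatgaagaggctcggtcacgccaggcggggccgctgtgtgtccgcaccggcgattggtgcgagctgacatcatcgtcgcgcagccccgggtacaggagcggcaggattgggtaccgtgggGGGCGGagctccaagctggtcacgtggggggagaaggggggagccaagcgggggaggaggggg
Pax6, chr2:105668646-105668895, plus strand: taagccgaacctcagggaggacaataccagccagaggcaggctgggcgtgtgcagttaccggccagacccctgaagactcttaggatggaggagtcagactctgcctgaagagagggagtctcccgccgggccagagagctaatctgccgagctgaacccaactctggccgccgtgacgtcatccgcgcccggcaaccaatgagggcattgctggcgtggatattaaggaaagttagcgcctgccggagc
The Klf4 window held 4 matches (2 of them adjoining and sharing bases), the Klf6 window 1 and the Pax6 window 0. Of the windows not printed, that of Foxc1 held 1 such match and that of Elf3 held 0. A link between these matches and the levels of the genes was not tested. Of all 32851 RefSeq windows of this length, 32.7% held a GGGCGG or CCGCCC match and 52.0% a CACCC or GGGTG match. The counts are taken near transcript 3′ ends by this kit, so they do not tell which start was used.

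On GRCm38, Pax6 (ENSMUSG00000027168) spans 105668900 to 105697364 of chromosome 2 in GENCODE M21, and its antisense neighbour Pax6os1 overlaps it without shared exons. Trp63 (ENSMUSG00000022510) spans 208340 bases of chromosome 16, from 25683763 to 25892102. Klf4 (ENSMUSG00000003032) and Klf5 (ENSMUSG00000005148) are on chromosomes 4 and 14, and Klf6 (ENSMUSG00000000078) and Foxc1 (ENSMUSG00000050295) are both on chromosome 13. Elf3 (ENSMUSG00000003051) on chromosome 1 overlaps exons of the antisense gene Gm26642. The strand setting of the counting is not given in the sources used here, so some Elf3 UMIs could belong to Gm26642, which was itself at 1.66 CPM (UMIs per 1000000 UMIs of the library) in WT, 1.49 in KO and 1.02 in KO_PBS. Ehf (ENSMUSG00000012350) and Id1 (ENSMUSG00000042745) are on chromosome 2, at 103263433 to 103303278 and 152736251 to 152737410. Trp63 overlaps 2 small annotated genes without shared exons, and neither is listed for any library.

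Depth differed between the libraries: WT held 256852883 UMIs (median 2261 per barcode), KO 352627863 (median 2980) and KO_PBS 178988562 (median 1432). Between 2833 and 3379 barcode sequences were shared by each pair of libraries. Aire had 15, 27 and 68 UMIs in WT, KO and KO_PBS, so it did not check the labels. The KO_PBS library stood apart in its markers of other eye tissues. Lens markers (7 measured of 8 listed, none at 0 in any library) summed to 589 CPM in WT, 195 in KO and 4571 in KO_PBS. Melanocyte markers (5 of 5, none at 0) summed to 481, 139 and 4109, and photoreceptor markers (6 of 6, none at 0) to 119, 42.7 and 1802. Corneal epithelial markers (6 of 6, none at 0) summed to 45669, 28373 and 23136. The part of these tissues in the differences of KO_PBS was not tested, and in such sums fewer cells of a type and less RNA per cell cannot be told apart.

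Levels are given in CPM, the UMIs of a gene scaled to the library's UMIs in shared genes, over all barcodes, with exact 95% Poisson intervals. They are set side by side between libraries and not between genes. Pax6 was at 506 in WT (503 to 509), 400 in KO (398 to 402) and 459 in KO_PBS (456 to 462). Trp63 was at 88.4 in WT (87.3 to 89.6), 215 in KO (214 to 217) and 93.9 in KO_PBS (92.5 to 95.3). The order was thus WT, KO_PBS, KO for Pax6 from high to low, and KO, KO_PBS, WT for Trp63, with no overlap of intervals.

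Among the differentiation factors, Klf4 was at 385 CPM in WT (383 to 388), 686 in KO (684 to 689) and 389 in KO_PBS (387 to 392). WT and KO_PBS did not differ beyond their intervals, and KO stood above both. Klf5 was at 114 in WT (113 to 115), 179 in KO (178 to 180) and 159 in KO_PBS (157 to 161), in that rising order WT, KO_PBS, KO. Elf3 was at 229 (227 to 231), 268 (266 to 270) and 259 (257 to 262), the narrowest relative range of the 9. Ehf was at 219 (217 to 221), 282 (280 to 283) and 150 (148 to 152), so here KO_PBS was the lowest library.

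Klf6 was at 45.6 CPM in WT (44.8 to 46.4), 89.6 in KO (88.6 to 90.6) and 77.1 in KO_PBS (75.8 to 78.4). Foxc1 was at 34.4 (33.7 to 35.1), 49.7 (49.0 to 50.5) and 55.2 (54.1 to 56.3), the one factor with its highest level in KO_PBS. Id1 was at 142 (140 to 143), 113 (111 to 114) and 94.3 (92.8 to 95.7), and it was the only one of the 9 to be lower in each library in the order WT, KO, KO_PBS. KO was the highest library for 6 factors, WT for Pax6 and Id1, and KO_PBS for Foxc1.

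**Figure D1:**
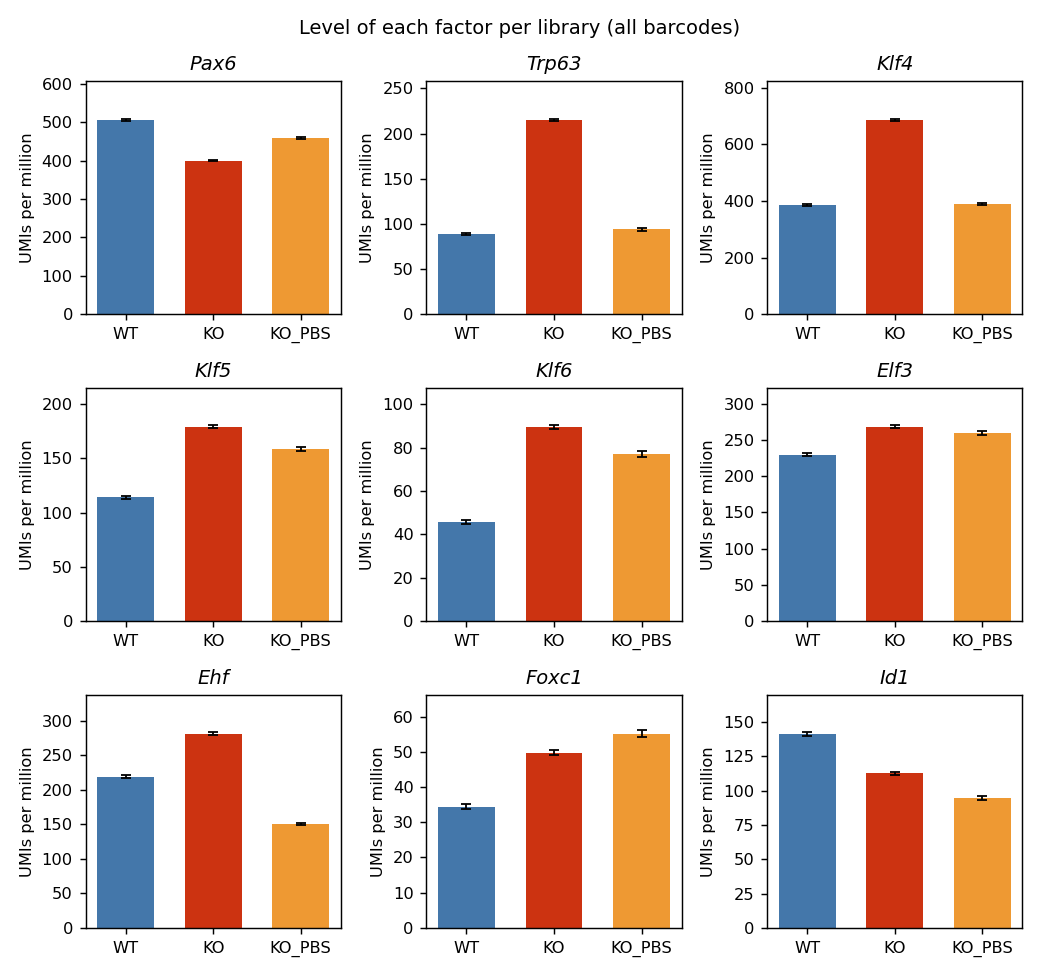
CPM (vertical axes from 0) of each of the 9 factors in the WT, KO and KO_PBS libraries, with exact 95% Poisson intervals as error bars that cover counting error only. KO is the tallest bar for Trp63 (215) and Klf4 (686), WT for Pax6 (506) and Id1 (142), and KO_PBS for Foxc1 (55.2).

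After thinning, the share of barcodes with a UMI followed the same order. Each barcode was thinned to 1000 UMIs, which left out shallower barcodes (WT 250, KO 219, KO_PBS 16277). A Pax6 UMI was found in 38.9% of thinned WT barcodes, 32.8% for KO and 35.7% for KO_PBS, against 67.7%, 69.1% and 47.4% before thinning. A Trp63 UMI was in 8.01% of thinned WT barcodes (7.83 to 8.18%), 19.0% for KO (18.8 to 19.3%) and 8.43% for KO_PBS (8.26 to 8.61%), against 18.9%, 47.4% and 12.6% unthinned. Thinned to 500 UMIs, the Trp63 intervals of WT (4.02 to 4.27%) and KO_PBS (4.20 to 4.43%) overlapped, so their order is not settled by the shares. A Klf4 UMI was in 31.5%, 49.6% and 32.0% of thinned barcodes, against 59.0%, 85.5% and 43.2% unthinned. Its thinned intervals overlapped between WT (31.2 to 31.8%) and KO_PBS (31.7 to 32.3%). Intervals for these shares are exact binomial (Clopper-Pearson).

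Barcodes rich in T cell markers held the epithelial factors too. These barcodes were chosen by a score and were not shown to be T cells: in WT their T cell marker UMIs were mostly Skap1 (164) and Themis (45), with 15 of Cd3e, 9 of Trac and 0 of Cd8a in 191 barcodes. Among them, a Pax6 UMI was in 33.0% for WT (26.4 to 40.1%), 26.4% for KO (20.4 to 33.1%) and 30.9% for KO_PBS (24.3 to 38.0%) at 1000 UMIs. Their median depths were 1962, 3792 and 2142.5 UMIs, against 6244.5, 5525.5 and 2834 in barcodes rich in corneal epithelial markers. There the Pax6 shares were 36.7%, 29.3% (23.1 to 36.2%) and 47.6% (40.4 to 55.0%), with an interval above that of the T cell marker-rich barcodes only in KO_PBS. In basal and limbal marker-rich barcodes they were 43.2% in WT (35.3 to 51.4%), 26.4% in KO (20.1 to 33.4%) and 38.6% in KO_PBS (31.0 to 46.7%), at median depths of 5889, 6417 and 3404.5 UMIs. The WT value lay above the T cell interval, but the intervals overlapped, as they did in KO and KO_PBS. A Trp63 UMI was in 12.6% of the T cell marker-rich barcodes of WT (8.22 to 18.1%), 20.3% of those of KO (14.9 to 26.6%) and 6.91% of those of KO_PBS (3.73 to 11.5%). In corneal epithelial marker-rich barcodes it was in 3.57% (1.45 to 7.22%), 8.59% (5.08 to 13.4%) and 28.8% (22.5 to 35.8%), below the T cell marker-rich share in WT and KO and above it in KO_PBS, with no overlap of the intervals. In basal and limbal ones it was in 5.16% (2.25 to 9.92%), 19.2% (13.8 to 25.7%) and 25.9% (19.3 to 33.5%), with an interval apart from that share, above it, only in KO_PBS. Klf4 UMIs were in 28.8%, 46.7% and 26.6% of T cell marker-rich barcodes and in 39.3%, 54.5% and 45.5% of corneal epithelial marker-rich ones. These Klf4 intervals overlapped in WT (22.5 to 35.8% and 32.4 to 46.5%) and in KO (39.6 to 53.9% and 47.3 to 61.6%). They were apart only in KO_PBS (20.4 to 33.5% and 38.3 to 52.9%). The Pax6 and Trp63 shares of the corneal epithelial and basal marker-rich barcodes of WT and KO did not stand above those of the T cell marker-rich ones beyond the intervals, and no share of expressing cells was read from them.

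The question of how the dry eye cornea differs from the wild-type one was asked first. Of the 9 factors, only Trp63 passed the rule of size in KO against WT. A gene was called when it was at least 2-fold apart after centring on the median gene and its intervals did not overlap. Of 20252 genes with at least 50 UMIs, 14.8% were called higher in this way and 12.9% lower, so 1 of 9 higher and 0 of 9 lower are not above that background. The same shares of all genes stand beside the counts of each related list in this comparison. Without centring 20.6% were higher and 8.63% lower, with the same 1 and 0 members. The log2 ratio of the median gene was 0.24, and centred values are relative to that shift. The centred median of the 9 was 0.29, with a range from -0.58 to 1.04, beside 0 for all genes.

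Trp63 was 2.05-fold higher in KO (log2 1.04, counting interval 1.02 to 1.06), just past the 2-fold limit. The other members of the p53 family, Trp53 (-0.12) and Trp73 (0.26), were not called. Trp63 was not called in the 25% of barcodes with the most UMIs, where its log2 ratio was 0.89. Krt14, the basal keratin that p63 activates, was the 1 gene called higher of 9 p63 targets, at 609 CPM (WT) and 1854 (KO), and none was called lower. The median of the p63 targets was 0.26.

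Klf6 (log2 0.73), Klf4 (0.59), Klf5 (0.41) and Foxc1 (0.29) were above the median gene in KO without passing the 2-fold limit, and so was Ehf (0.12). Elf3 was at -0.02, close to the median gene. Uncentred, Elf3 was at 0.23, so its sign depends on the scale. The Klf family, which includes the 3 Klf members, had 4 of 14 tested genes called higher and 0 lower, with a median of 0.80. Klf10, an early-response factor downstream of TGF-beta, was at 45.3 against 14.6 CPM, and Klf7 at 42.9 against 16.6. The centred differences of Klf4 and Klf6 were smaller than those of Klf10 (1.39) and Klf7 (1.13).

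Pax6 (log2 -0.58) and Id1 (log2 -0.58) were the lower pair in KO. Neither passed the limit. Both kept their sign uncentred, at -0.34 and -0.33. Among 9 genes known as Klf4 targets in the mouse cornea, 3 were called lower and 0 higher, with a median of -0.70. Aqp5, the water channel of the corneal epithelium, had levels of 9303 CPM (WT) and 4640 (KO). Krt12, the keratin of differentiated corneal epithelium that Pax6 also activates, was at 26121 and 13793. Slurp1, a secreted protein of the corneal epithelium, was the third gene called, at 3810 and 2165. Klf4 itself was above the median gene in this comparison, at 0.59.

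The Ets family, which includes Elf3 and Ehf, had 9 of 24 tested genes called higher in KO and 0 lower. These were led by Spib, with 1223 UMIs against 4, and Spi1, at 32.3 against 2.74 CPM, which are factors of B cells and myeloid cells. Macrophage markers (7 of 7, none at 0) summed to 88.8 CPM in WT and 1316 in KO, and B and plasma cell markers (6 of 6, none at 0) to 15.9 and 1284. The part of those cells in the Ets difference was not tested. Neither Elf3 nor Ehf was among the 9 called.

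Other epithelial factors, a list of 16 with Grhl, Ovol and Tfap2 genes, had 2 called higher and 1 lower, with a median of 0.16. Gata3 (3.37 against 0.340 CPM) and Vdr (8.26 against 3.31), the vitamin D receptor, were the higher ones. Hopx, at 534 against 1127, was the lower one. T cell markers (8 of 8, none at 0) summed to 6.81 CPM in WT and 119 in KO. The part of T cells in the Gata3 difference was not tested. The Id and E protein list had Tcf4 at 173 against 55.9 and Tcf12 at 158 against 55.4 CPM called higher, while Id1 was at 113 against 142. Of 18 Bmp signalling genes, 3 were called higher and 0 lower, with the higher share near the 14.8% of all genes. Acvrl1, a receptor best known in vessels, was at 7.90 against 1.997 CPM, and Bmpr2 at 73.5 against 29.7. Of the 10 periocular mesenchyme factors, Pitx1 (8.26 against 2.99) and Foxc2 (0.837 against 0.332) were called higher and none lower. Keratocyte markers (8 of 8, none at 0), which mark the mesenchymal cells of the stroma, summed to 1230 CPM in WT, 4128 in KO and 2479 in KO_PBS. Their part in the differences of these factors and of Foxc1 was not tested. The general epithelial reference list was split, with Cdh1 (146 against 59.3) among 2 called higher and Epcam (127 against 232) among 2 lower, and a median of 0.00.

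The eye field list, factors that work with Pax6 in the optic vesicle and lens, went the other way in KO, with 5 of 14 called lower and 1 higher. Six6, a homeobox factor of the retina, was at 0.131 CPM in KO and 0.570 in WT. Mitf, the melanocyte factor, was at 32.3 in KO and 10.2 in WT. The photoreceptor, lens and melanocyte markers were also lower in KO than in WT, as given above. Their part in the Pax6 difference was not tested.

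The saline-treated knockout was next set against the untreated one, with which it shares the genotype. The KO_PBS file lists 31053 genes and the other files 32285. In each comparison of KO_PBS, effects of this other gene list and of the treatment cannot be told apart. All 9 factors were below the median gene in KO_PBS, and 3 were called lower: Trp63, Ehf and Klf4. Of 22416 genes, 12.9% were called lower and 29.9% higher, so 3 of 9 lower is above and 0 of 9 higher below the background. The median gene was shifted by 0.63. Trp63 was 3.54-fold lower (log2 -1.83), Ehf 2.90-fold lower (-1.54) and Klf4 2.73-fold lower (-1.45). Id1 (-0.89), Klf6 (-0.85), Klf5 (-0.80), Elf3 (-0.68), Foxc1 (-0.48) and Pax6 (-0.43) followed. Pax6 was thus the factor least below the median gene.

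The direction of most of these differences depends on the scale. Uncentred, only Trp63 was called lower, where 4.7% of genes were lower and 39.9% higher. Pax6 was at 0.20 and Foxc1 at 0.15, and the other 7 were negative, with Elf3 at -0.05. Set against a list of 16 general epithelial genes such as Cdh1 and Epcam, whose own median was -1.20 centred, 6 of the 9 were higher and 3 lower, and none was called, beside 57.1% of genes called higher and 2.65% lower. On that scale Pax6 was at 0.77, Foxc1 at 0.72, Elf3 at 0.52, Klf5 at 0.39, Klf6 at 0.35 and Id1 at 0.31. Trp63 (-0.63), Ehf (-0.34) and Klf4 (-0.25) were lower on all 3 scales, which are all taken over all barcodes.

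**Figure D2:**
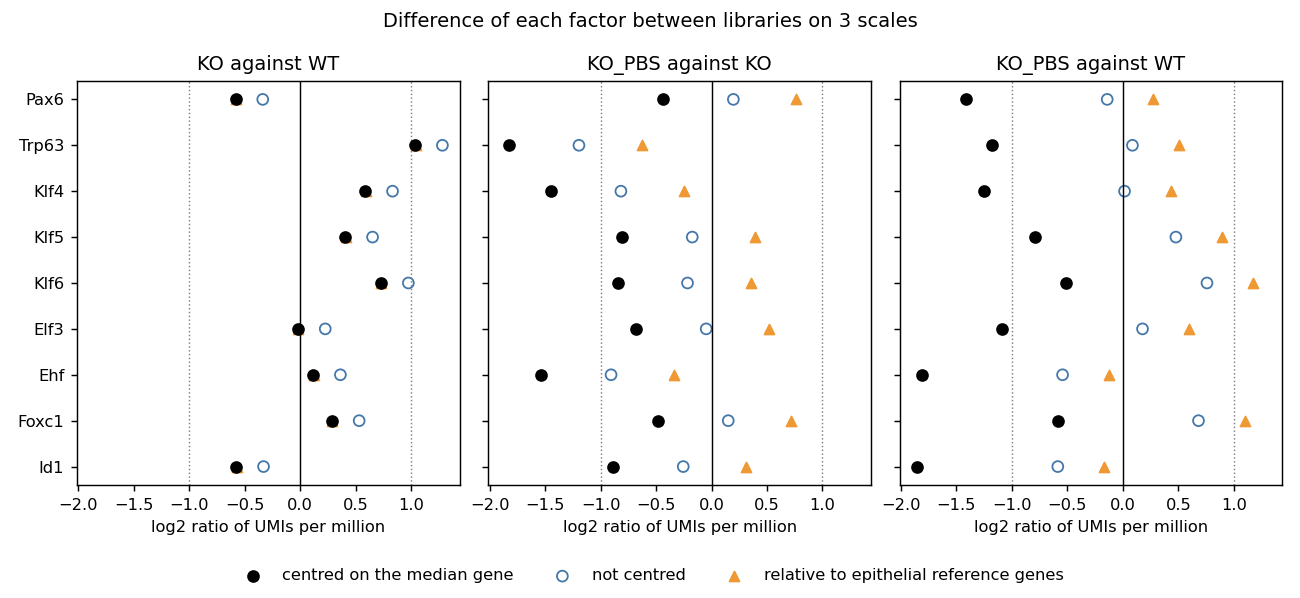
Log2 ratio of CPM of each of the 9 factors in the 3 comparisons (horizontal axis; dotted lines at 2-fold), centred on the median gene (filled), not centred (open) and relative to the epithelial reference genes (triangles). In KO against WT the uncentred values lie 0.24 above the centred ones, while in KO_PBS against KO Pax6 lies at -0.43, 0.20 and 0.77.

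On the centred scale many epithelial genes beside the factors were called lower in KO_PBS. Of the 16 other epithelial factors 8 were called lower and 0 higher, with a median of -0.99. Grhl3, a grainyhead factor of surface epithelia, was at 10.9 CPM in KO_PBS and 28.5 in KO. Of the 9 Klf4 targets 6 were called lower, and of the 9 p63 targets 7, with medians of -1.83 and -1.67. Krt5, on both of these lists, was at 2164 against 6456, and Dsg1b, a desmosomal cadherin, at 10.8 against 32.8. The median of the Klf4 targets was below Klf4 itself (-1.45), while Slurp1 (-0.38), Aldh3a1 (-0.52) and Tkt (-0.61) were above it. Trp63 (-1.83) was below the median of its targets. Of the epithelial reference list 11 of 16 were called lower and 0 higher. These counts depend on the scale as those of the 9 factors do. The uncentred median of the other epithelial factors was -0.36, and relative to the epithelial reference 1 of the 16 was called lower and 3 higher. On that last scale 2 Klf4 targets were lower and 0 higher, and 2 p63 targets lower and 1 higher. In every comparison the reference list shares Dsp with the Klf4 targets and Perp with the p63 targets, so these lists are not separate from it.

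The relatives of the factors were mixed in KO_PBS against KO on the centred scale, beside 29.9% of all genes called higher and 12.9% lower. The Klf family had 3 of 15 called higher and 4 lower. Klf10 was at 18.0 against 45.3 CPM, Klf8 at 9.68 against 2.23, and Klf17 had 55 UMIs against 1. In the Ets family 1 of 24 was higher, Spdef, a goblet cell factor, with 136 UMIs against 32, and 4 were lower, among them Ehf itself and Ets2 at 35.1 against 54.3 CPM. Of the Id and E protein list 0 of 7 were called either way. Of the periocular mesenchyme factors Foxl2 (0.962 against 0.159) was higher, and Pitx1 (3.33 against 8.26) and Twist1 (15.4 against 21.5) lower. Bmp signalling had 7 of 18 higher and 0 lower, led by the antagonist Grem1, at 11.2 against 0.339, and the ligand Bmp4, at 49.8 against 1.71. Id1, a target of such ligands, was at 94.3 against 113. Relative to the epithelial reference these lists had 0 genes called lower, and those called higher were 5 of the Klf family, 7 of the Ets family, 5 of the Id and E proteins, 7 of the periocular factors and 12 of the Bmp genes. Of all genes 57.1% were called higher on that scale and 2.65% lower.

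Eye field factors stood at the other extreme in KO_PBS. Of 14, 8 were called higher and 1 lower than in KO, with a median of 2.19. Six3, a homeobox factor of lens and retina, was at 50.9 CPM in KO_PBS and 1.02 in KO, and Six6 at 7.94 and 0.131. Meis2 was the lower one, at 147 against 230. These genes accompany Pax6 in lens, retina and ciliary tissue. The lens and photoreceptor markers were at the high sums given above in this library, and no ciliary marker list was measured. The part of those tissues in the Pax6 level of KO_PBS was not tested.

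**Figure D3:**
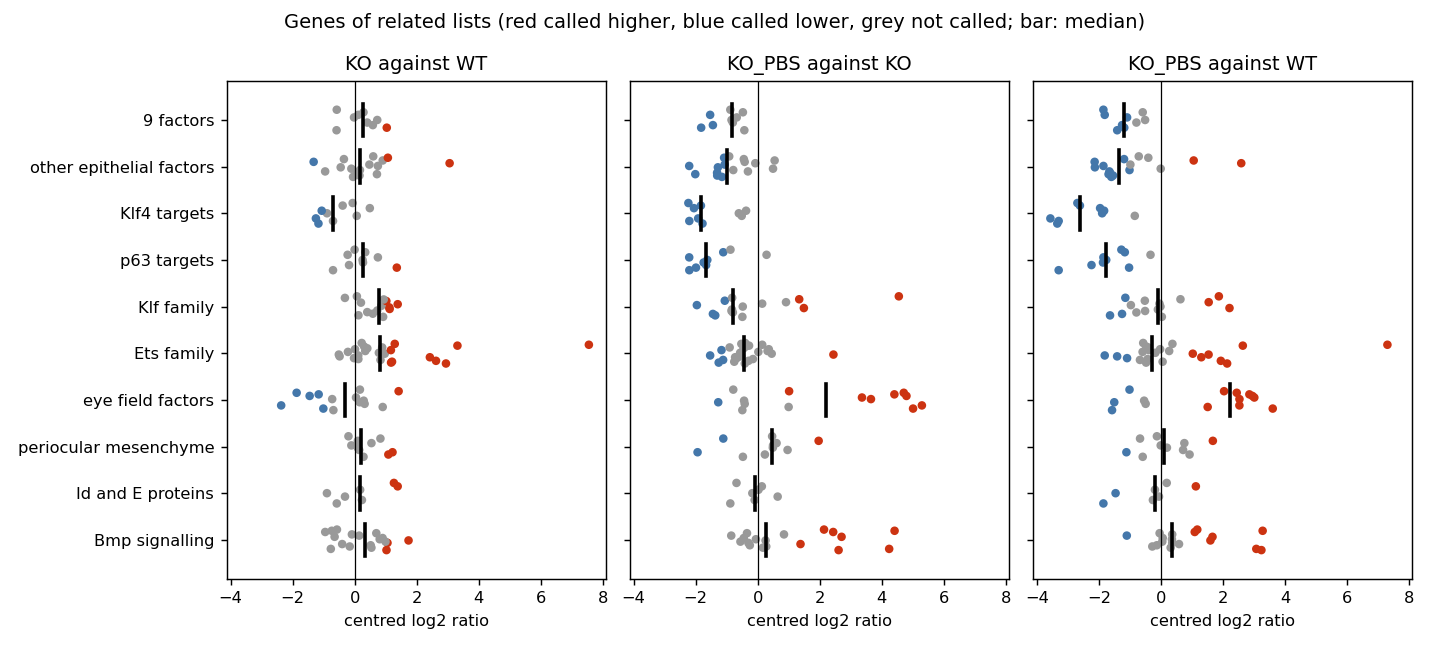
Centred log2 ratio (horizontal axis) of each tested gene of the 9 factors (top) and of the related lists in the 3 comparisons, with genes called higher in red, called lower in blue and others in grey, and the list median as a bar. In KO_PBS against KO the eye field factors have a median of 2.19, and the Klf4 and p63 targets medians of -1.83 and -1.67.

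In KO_PBS against WT, which shares a library with each comparison above, 6 of the 9 factors were called lower and 0 higher, against 23.1% and 29.6% of 22138 genes. The called ones were Id1 (log2 -1.86), Ehf (-1.81), Pax6 (-1.41), Klf4 (-1.25), Trp63 (-1.18) and Elf3 (-1.09). Klf5 (-0.79), Foxc1 (-0.59) and Klf6 (-0.51) were below the median gene without passing the limit. In the 25% of barcodes with the fewest UMIs, 3 of the 9 were called lower, with Trp63 (-0.99), Klf4 (-0.87) and Elf3 (-0.57) no longer called, and in the 25% with the most UMIs 5 were, with Trp63 (-0.99) no longer called. The shift of the median gene was 1.27 here, and without centring 0 of the 9 were called, beside 57% of genes higher and 4.06% lower. Uncentred, 6 of the 9 were above 0, among them Klf6 (0.76) and Foxc1 (0.68), and Id1 (-0.59), Ehf (-0.54) and Pax6 (-0.14) were below it. Relative to the epithelial genes only Id1 (-0.17) and Ehf (-0.13) were lower, and Klf6 (1.17) and Foxc1 (1.10) were called higher, beside 69.1% of genes higher and 2.32% lower.

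Id1 and Ehf were thus lower than in WT on these 3 scales. In the same comparison the Klf4 targets had a median of -2.61, with 8 of 9 called lower, and Krt12 was at 6205 CPM against 26121 and Aqp5 at 1895 against 9303. The p63 targets had 8 of 9 lower and a median of -1.76, with Krt5 at 2164 against 8829 and Perp, a desmosomal protein, at 459 against 899. Of the other epithelial factors 10 of 16 were lower and 2 higher, with Hopx at 617 against 1127, Tfap2c at 14.1 against 25.7, Gata3 at 4.93 against 0.340 and Sox9 at 39.4 against 7.86. Six3 (50.9 against 1.74) and Sox2 (2.13 against 0.109) led the 9 of 14 eye field factors called higher. The antisense Pax6os1, at 15.7 against 19.4, was called lower with Pax6, and Meis2, at 147 against 173, too. Of the Id and E protein list Tcf4 (294 against 55.9) was called higher and Id1 and Id4 (10.9 against 12.5) lower. In the remaining lists Spib (1058 UMIs against 4), Klf8 (9.68 against 0.867 CPM) and Grem1 (11.2 against 0.477) led the higher genes, and Klf3 (133 against 172), Elf5 (5.99 against 6.62) and Smad4 (61.9 against 55.1) were called lower after centring. Relative to the epithelial reference the other epithelial factors had 0 lower and 4 higher, the p63 targets 1 lower and 1 higher, and the Klf4 targets 4 lower and 0 higher. The Klf, Ets, Id and E protein, periocular and Bmp lists had 0 lower on that scale, and 10, 21, 5, 9 and 17 higher. Of all genes 69.1% were called higher on that scale and 2.32% lower.

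Which barcodes carried each factor was then asked within each library. For each of 16 marker lists, none of which holds a factor, the 200 called barcodes with the largest excess of marker UMIs were pooled, and a barcode chosen for several lists was kept in 1. This left 155 to 199 barcodes per pool. A pool is a range of a score and not a cell type. Levels in a pool were set against the 25% of barcodes with the fewest UMIs of the same library (low-UMI barcodes). By the criteria for called barcodes, the low-UMI barcodes of WT held 0 called ones, those of KO 25969 (of 26776) and those of KO_PBS 23070 (of 28693), so the reference is not of the same kind in each. The corneal epithelial pools of WT and KO stood little apart from these. Only 1 of 6 corneal epithelial markers was over 2-fold above the low-UMI level in WT (Psca) and 1 in KO (Slurp1), and in KO_PBS 2 were (Krt12 and Upk1b). Conjunctival markers were over that limit for 7 (WT), 5 (KO) and 7 (KO_PBS) of the 8.

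Trp63 stood above the low-UMI level in the corneal epithelial and the basal and limbal pools in KO_PBS only. There it was at 383 CPM in the basal and limbal pool (336 to 434), 4.92 times its low-UMI level (4.29 to 5.63), and at 315 in the corneal epithelial pool, 4.06 times that level. It was at 1.21 times in the conjunctival pool, not apart from the low-UMI level beyond counting error. In WT it was below the low-UMI level in the corneal epithelial pool (0.559, 0.444 to 0.696) and not different from it in the basal and limbal pool (0.89, 0.709 to 1.10). In KO both pools were below it, at 0.663 and 0.840. In WT Trp63 was above it in 4 of 16 pools, among them the Schwann (1.47, 1.19 to 1.78) and T cell marker pools (1.44, 1.13 to 1.81). The basal pool of KO_PBS thus held more Trp63 per UMI than that of KO (187, 164 to 213) or WT (76.5, 61.1 to 94.6), the reverse of the library totals for KO and KO_PBS. The leading markers of that pool were Krt15 (7.49 times) and Gpha2 (6.51) in WT, Krt15 (4.48) and Krt14 (4.16) in KO, and Krt15 (8.16) and Lama3 (7.61) in KO_PBS.

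Elf3 was above the low-UMI level in the corneal, basal and conjunctival pools of every library. In conjunctival pools it was at 461 CPM in WT (2.03 times the low-UMI level, 1.80 to 2.27), 530 in KO (1.93 times, 1.74 to 2.12) and 1061 in KO_PBS (3.87 times, 3.55 to 4.20). In corneal epithelial pools the ratios were 1.66, 1.38 and 1.92, and in basal pools 1.19, 1.17 and 1.84. In corneal endothelial pools it was below the low-UMI level in all 3 libraries, at 0.675, 0.748 and 0.508.

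Klf4 was above the low-UMI level in the corneal epithelial pools of WT (1.32, 1.23 to 1.41), KO (1.14, 1.07 to 1.21) and KO_PBS (1.99, 1.81 to 2.19). In the corneal endothelial pools it was at 0.590, 0.740 and 0.532 of that level, with intervals below 1. Klf5 was highest in conjunctival pools of KO_PBS (4.01, 3.56 to 4.50) and of WT (1.66, 1.37 to 1.98), and in KO it was at 1.02. Its basal and limbal ratio was 3.44 in KO_PBS, 1.57 in WT and 1.04 in KO. Ehf was above the low-UMI level in the corneal epithelial pools of KO_PBS (2.97, 2.60 to 3.38) and WT (1.15, 1.04 to 1.27). In KO its corneal epithelial ratio was 0.993.

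In KO_PBS the largest Pax6 excess was in the melanocyte marker pool, at 886 CPM (822 to 953), 2.06 times the low-UMI level (1.91 to 2.22). The corneal epithelial pool followed at 697 (1.62 times, 1.47 to 1.78). The mural pool was at 620 (1.44 times), the basal pool at 564 (1.31 times) and the lens pool at 383 (0.89 times, 0.750 to 1.05). Pax6 is also known from pigmented iris and ciliary epithelium and from lens. In WT and KO its corneal epithelial ratios were 0.982 and 0.960, and the melanocyte marker ratios 0.919 and 1.07, none with an interval away from 1. The basal and limbal ratios were 0.941 in WT (0.860 to 1.03) and 0.890 in KO (0.808 to 0.977). The skeletal muscle marker pool was the 1 WT pool of 16 with Pax6 above the low-UMI level, at 1.12 times (1.00 to 1.24), and KO had 0 such pools. In corneal endothelial pools Pax6 was below the low-UMI level in all 3 libraries, at 0.705, 0.797 and 0.708.

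Id1 was the only factor with its main excess in the basal and limbal pool of WT, at 379 CPM (344 to 417), 2.65 times the low-UMI level (2.39 to 2.92). In KO that pool was at 179 (1.63 times, 1.42 to 1.87), and in KO_PBS at 137 (1.46 times, 1.17 to 1.82). The CPM intervals of KO (156 to 204) and KO_PBS (110 to 169) overlapped, and both lay below that of WT. At 1000 UMIs, 34.2% of the WT basal pool had an Id1 UMI (26.8 to 42.2%), against 15.2% of WT barcodes rich in T cell markers (10.4 to 21.1%), at median depths of 5889 and 1962 UMIs. The basal share was 13.7% in KO (9.09 to 19.6%) against 5.58% in T cell marker-rich barcodes (2.82 to 9.77%), and 8.86% in KO_PBS (4.93 to 14.4%) against 7.45% (4.13 to 12.2%), so these intervals overlapped in KO and KO_PBS. It was also above the low-UMI level in the vascular endothelial pools of WT (1.53, 1.31 to 1.78), KO (1.78, 1.52 to 2.07) and KO_PBS (1.32, 1.00 to 1.71).

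Klf6 was above the low-UMI level in 9 of 16 pools of KO_PBS, immune ones included. It was at 3.40 times the low-UMI level in the conjunctival pool of KO_PBS (2.82 to 4.07), 2.11 times in its T cell pool (1.61 to 2.72) and 1.92 times in its macrophage pool (1.46 to 2.47). In WT it was above that level in the conjunctival pool at 1.54 (1.12 to 2.06) and in the corneal epithelial pool at 1.30 (1.05 to 1.59). In KO it was above it in 0 of 16 pools. Foxc1 had few UMIs per pool. It was above the low-UMI level in the corneal endothelial (1.44, 1.11 to 1.85) and mural pools (1.42, 1.05 to 1.87) of KO, from 63 and 50 UMIs, and in the conjunctival (2.22, 1.70 to 2.85) and basal pools (1.88, 1.43 to 2.43) of KO_PBS, from 65 and 61. Corneal endothelium and vessel walls of the eye include neural crest derivatives, the lineage in which Foxc1 is best known. The endothelial and mural excess was in KO only. In WT Foxc1 was above the low-UMI level in 0 of 16 pools, and in KO_PBS only in the 2 epithelial pools named. In keratocyte pools it was at 0.941 (WT), 1.06 (KO) and 1.22 (KO_PBS), all with intervals that hold 1.

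**Figure D4:**
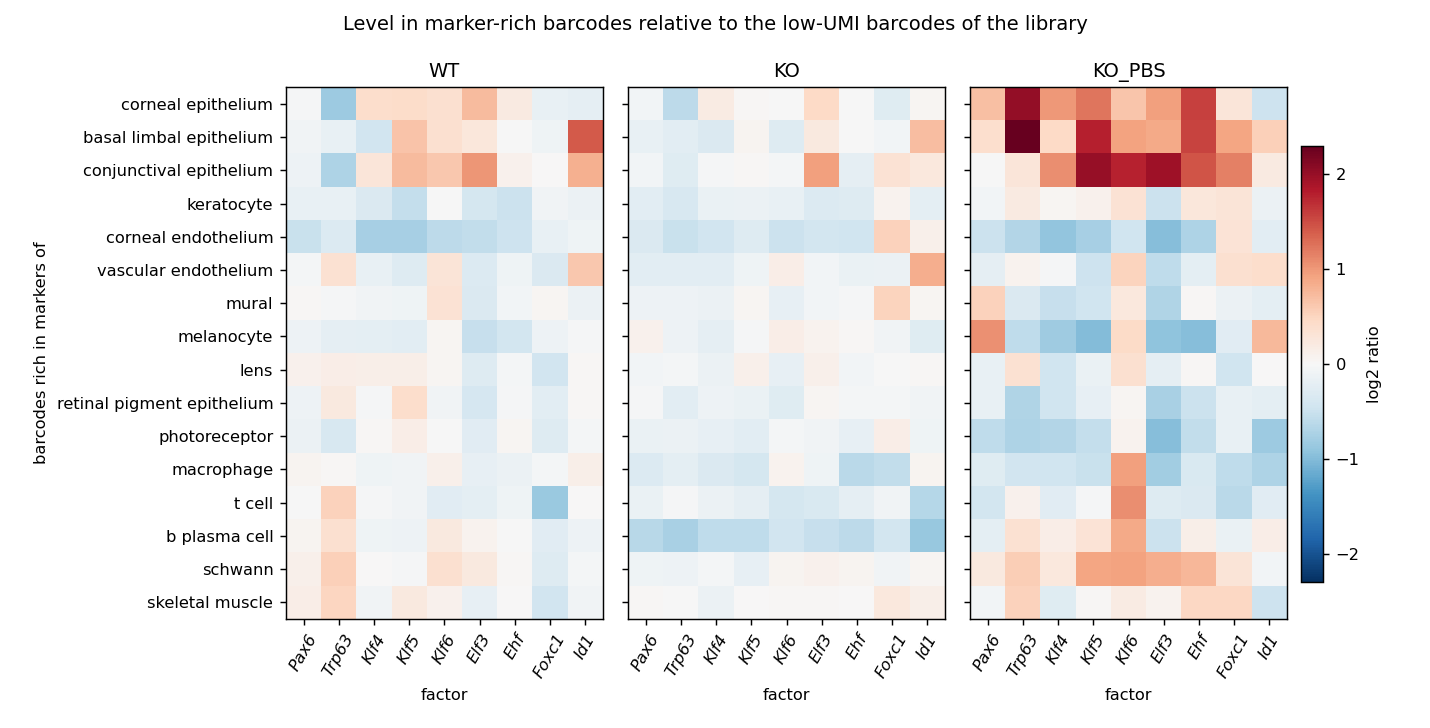
Log2 ratio (colour) of each factor's CPM in barcodes rich in the markers of 16 classes (rows) to the low-UMI barcodes of the same library, for WT, KO and KO_PBS. Colours are strongest in KO_PBS, where Trp63 is 4.92 times the low-UMI level in the basal and limbal row and Elf3 3.87 times in the conjunctival row, while Id1 is 2.65 times in the basal and limbal row of WT.

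Over the 48 pools of all libraries, centred within each library, Klf4, Klf5, Elf3 and Ehf varied together. Pearson's r between them ran from 0.81 for Klf4 with Elf3 to 0.91 for Klf5 with Ehf. Trp63 was nearest to Ehf (0.74), Klf6 to Elf3 (0.69) and Foxc1 to Klf5 (0.57). Pax6 reached 0.43 with Trp63 as its best and Id1 0.32 with Klf6. Pools share a library, its common RNA and its depth, so these values describe the pools and carry no test. The spread was not made equal between libraries, and no r was taken within a single library. Klf5 was above the low-UMI level in 4 pools of KO_PBS, 4 of WT and 0 of KO, and Ehf in 5, 1 and 0. The part of KO_PBS in these correlations was not tested.

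The genes most like each factor over the same pools were drawn from 9969 others. Klf4 was nearest to Mal2 (r = 0.93), Ppl (0.91) and Emp1 (0.91). Ppl encodes periplakin of the cornified envelope and of desmosomes. Klf5 was nearest to Dsg3 (0.92) and Krt6a (0.91), then to Ehf, and Ehf to Pkp1 (0.93), Zbtb7a (0.92) and Dsc2 (0.92), where Dsg3, Pkp1 and Dsc2 are desmosomal genes. Elf3 was nearest to Krt6b (0.96), Cldn7 (0.94) and Emp1 (0.93). Trp63 was nearest to Mir205hg (0.89), the host gene of an epithelial microRNA, then to Egfr (0.87) and Chst9 (0.86). The other factors had lower maxima: 0.79 for Pax6 with Mtus1 (then Epb41l4a and Ppp1r14c), 0.80 for Klf6 with Tmod3 (then Dbnl and Arrdc4), 0.74 for Foxc1 with Pls3 (then Ckap4 and Uaca), and 0.72 for Id1 with the early-response gene Jun (then Serpinb3a and Ctnnb1).

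**Figure D5:**
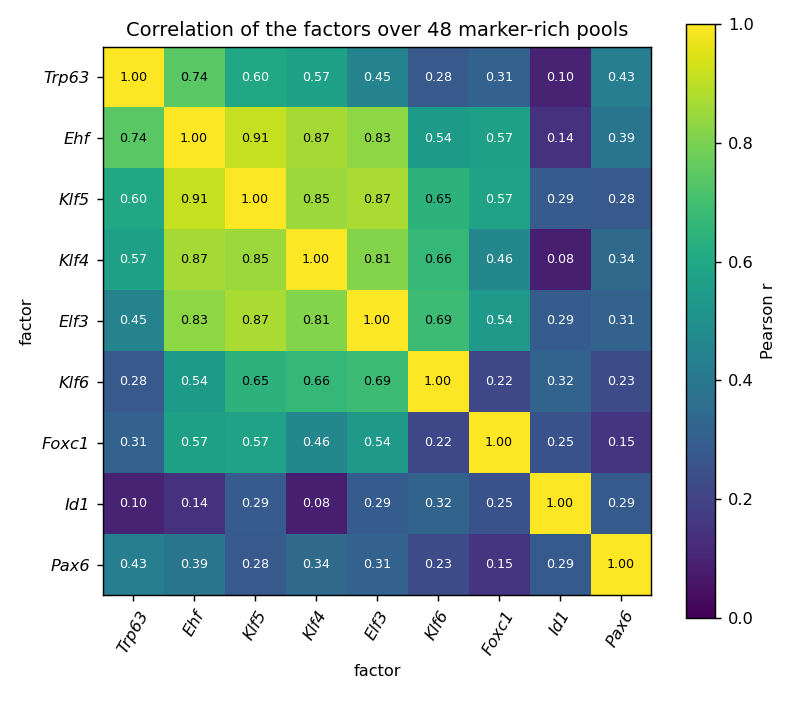
Pearson correlation (colour and printed value) between the 9 factors over 48 marker-rich pools, on log2 of CPM plus 10 centred within each library. Klf4, Klf5, Elf3 and Ehf form a block from 0.81 to 0.91, and Id1 and Pax6 stay at or below 0.43 with every other factor.

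Within a library the factors varied with barcode depth. The 25% of barcodes with the most UMIs held 1.39 times the Trp63 level of the low-UMI barcodes in KO_PBS (1.32 to 1.46), 1.09 times in WT and 0.940 times in KO. Over the 9 factors and 3 libraries this ratio ran from 0.927 for Foxc1 in WT to that value. In the low-UMI barcodes alone Trp63 was at 86.0 CPM in WT, 222 in KO and 77.7 in KO_PBS, and Klf4 at 370, 711 and 362. KO was again the highest library for both. Trp63 was higher in WT than in KO_PBS here, the reverse of their order over all barcodes, where Klf4 did not differ between them beyond its intervals.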

How the data were processed

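Single-nucleus RNA was counted in 3 libraries, WT, KO and KO_PBS. The values are whole UMI counts as deposited by the authors, from Cell Ranger (7.0.1, per the file headers) and mm10 (per the submitters' processing notes). The annotation, the strand and intron settings and the barcode filter are not given in the sources used here. The KO_PBS file lists 31053 genes and the others 32285, and the 30406 shared Ensembl IDs hold 99.3 to 99.6% of UMIs. Each group is 1 library, so no p-value, SD or leave-one-out run could be made.

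UMIs were summed over all barcodes, doublets included, since no caller was run. Log2 ratios used counts below 3 set to 3 and were centred on the median of genes with at least 50 UMIs. A call needs a 2-fold centred difference and Poisson intervals that do not overlap, which is a rule of size. On simulated counts of 20290, 23013 and 22440 genes the rule called 100% of 4-fold changes and 0% of 1.25-fold ones in the 3 comparisons. The changed genes were drawn only from genes with counts well above the rule's minimum. No fold near the 2-fold limit was simulated. The rule also called 5, 14 and 7 unchanged genes. The simulated noise was counting error only, so this does not test the rule against differences between mice or libraries. Called barcodes had at least 500 genes, no more than 5% mitochondrial UMIs, and a depth of 10% or more of the 99th percentile barcode among the top 10000. They number 72221, 106224 and 108734, and 0, 25969 and 23070 of them are low-UMI barcodes.

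Pools were ranked by a binomial excess. Likeness used a pseudocount of 10 CPM and genes with a mean of at least 10, outside the marker lists. Named genes are the 9 factors, up to 2 per related list and direction in each comparison, and the 3 most like each factor. Some genes that this rule names are not reported here. Slurp1, Aldh3a1, Tkt and the uncalled Trp53 and Trp73 were named after their values were seen. The members and lists were chosen with earlier results of these data known. Scripts ran in Python 3.11.15 with pandas 2.3.3, scipy 1.17.1, numpy 2.4.6 and matplotlib 3.10.9.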

Additional observations from a re-analysis of the deposited data

How the results depend on the processing

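The calls of KO_PBS changed with the scale, and Foxc1 had 12 to 65 UMIs per pool. For KO against WT, Trp63 alone was called in all but 3 of the settings tried, where members called higher were 0 in the 25% of barcodes with the most UMIs, 3 at a fold of 1.5 and 2 with no minimum of UMIs. Genes called higher were 5107 at a fold of 1.5 and 4633 with no minimum, and genes called lower 4810 at a fold of 1.5 and 1606 in the 25% of barcodes with the fewest UMIs, a setting chosen after seeing the data. For KO_PBS against KO, members called lower were 1 with no centring, 0 relative to the epithelial reference, 7 at a fold of 1.5 and 7 with no minimum. Genes called lower were 1053, 594, 5899 and 5650 in these settings, and genes called higher 12789 relative to the epithelial reference and 3952 in the barcodes with the fewest UMIs. For KO_PBS against WT, members called lower were 0 with no centring, 0 relative to the epithelial reference, 3 in the barcodes with the fewest UMIs, 5 in those with the most and 8 at a fold of 1.5. Members called higher were 2 relative to that reference. Genes called higher were 12609 with no centring and 15293 relative to the reference, and genes called lower 899, 514 and, in the barcodes with the fewest UMIs, 2956. Here 6 factors changed sign with no centring: Trp63 (0.086), Klf4 (0.015), Elf3 (0.18), Klf5 (0.48), Klf6 (0.76) and Foxc1 (0.68). Relative to the reference 7 did: Pax6 (0.27), Trp63 (0.50), Klf4 (0.43), Elf3 (0.59), Klf5 (0.89), Klf6 (1.17) and Foxc1 (1.10). These follow from the shift that each scale subtracts, 1.27 at the median gene and -0.42 at the reference. Of 432 pool ratios, 385 stayed within their interval with 100 barcodes per pool, 420 with 400, and 425 against called barcodes; 2, 1 and 0 with an interval away from 1 changed side. Thinning to 500 UMIs lowered the shares to between 0.496 and 0.588 of their values. No paired analysis was possible because each group has 1 library.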
